A study of Mus musculus with 10 samples.

Results

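The genes described here encode the machinery that licenses replication origins, fires them, copies DNA at the fork, supplies deoxynucleotides and restores chromatin and DNA methylation behind the fork. A list of 51 such genes was taken by name, and 50 of them had a probe set that names that gene alone, among 22180 genes measured; Rfc4 had none and was not analysed here. The value of a gene is the average log2 intensity over its probe sets, which for 44 members is 1 probe set and for 6 members is 2. The material was subepithelial mesenchyme, the connective tissue layer under the epithelium of the trachea, taken by laser-capture microdissection from 5 chlorine-exposed and 5 unexposed male FVB/NJ mice, an inbred strain, at 9 weeks of age. The exposed mice had received 235 ppm chlorine over the whole body for 1 hr and were sampled 4 days later; the unexposed mice had no treatment. Tissue from several sections was pooled within a mouse, and each mouse gave 1 array, so that the mice are the replicates and their number limits the precision of every value. The comparison asks which transcripts differed in tissue where, per the series title, fibrotic lesions were developing.

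Replication starts at origins bound by the origin recognition complex (ORC), on which Cdc6 and Cdt1 load the Mcm2-7 helicase; geminin, the product of Gmnn, blocks Cdt1 and so prevents re-replication. The Cdc7-Dbf4 kinase and cyclin-dependent kinases then recruit Cdc45 and the GINS complex to the helicase, and polymerases alpha, delta and epsilon copy the strands with the sliding clamp PCNA, its loader RFC and the single-strand binding complex RPA. Many of these genes are transcribed from late G1 into S phase under E2F transcription factors, and in resting tissue most cells do not replicate their DNA.

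At 4 days after chlorine, 32 of the 50 measured replication genes rose and 0 fell at a limma adjusted p under 0.05, where 5.85% of all 22180 genes rose and 4.97% fell. The median log2 change over the 50 genes was 0.655, beside -0.003 over all genes tested, and 47 of the 50 changes were above 0. In 30 members every exposed mouse stood above every unexposed mouse, a pattern that 5.89% of all genes showed (5.06% showed the opposite one, and 0 members did), and 28 of these were among the genes that rose. A rise of at least 2-fold was found in 11 members, beside 1.85% of all genes. Of the 18 members that did not pass, 10 had an unadjusted p under 0.05 with a 95% interval wholly above 0, and the interval spanned 0 in the other 8. Passing or not, 42 of the 50 members had an unadjusted limma p under 0.05, beside 5408 of all 22180 genes in either direction. In bulk tissue a larger share of replicating cells and more transcript per cell cannot be told apart. Leaving out each mouse in turn gave 27 to 36 members that rose, and 26 of the 32 kept their call in all 10 such fits.

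**Figure D1:**
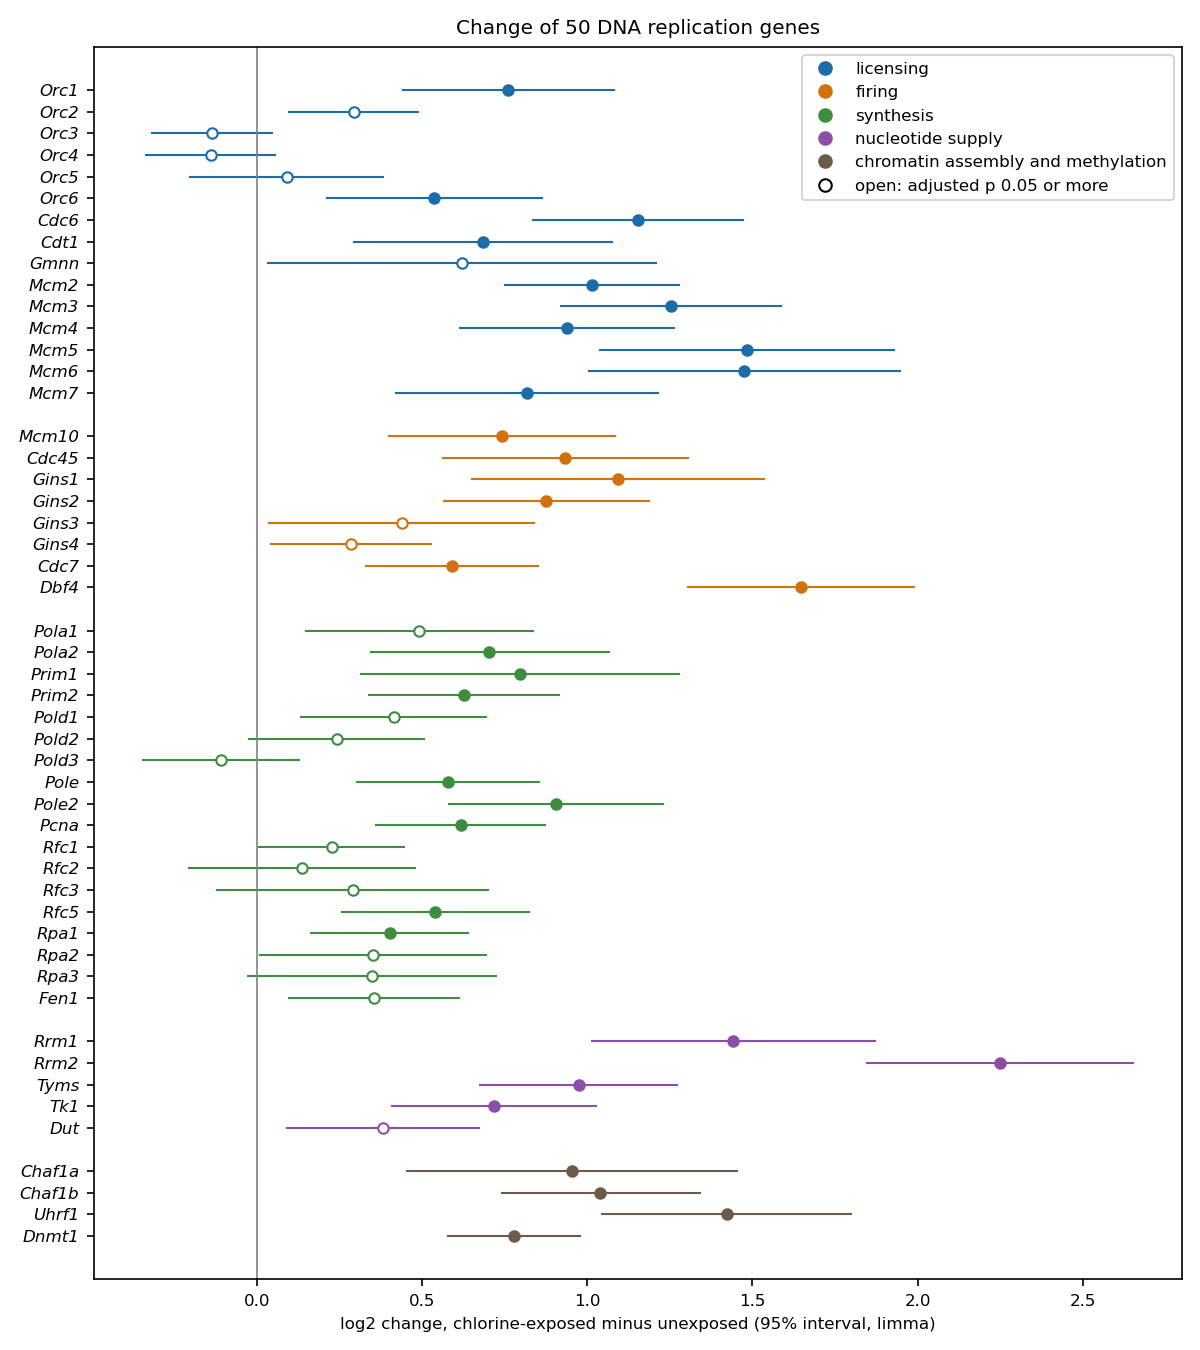
Log2 change of each of the 50 measured replication genes (chlorine-exposed minus unexposed, horizontal axis) with its 95% interval, grouped by step; filled points passed an adjusted p under 0.05. Rrm2 at 2.25 and Dbf4 at 1.65 lie farthest to the right, and the points of Orc3, Orc4 and Pold3 lie left of 0.

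**Figure D2:**
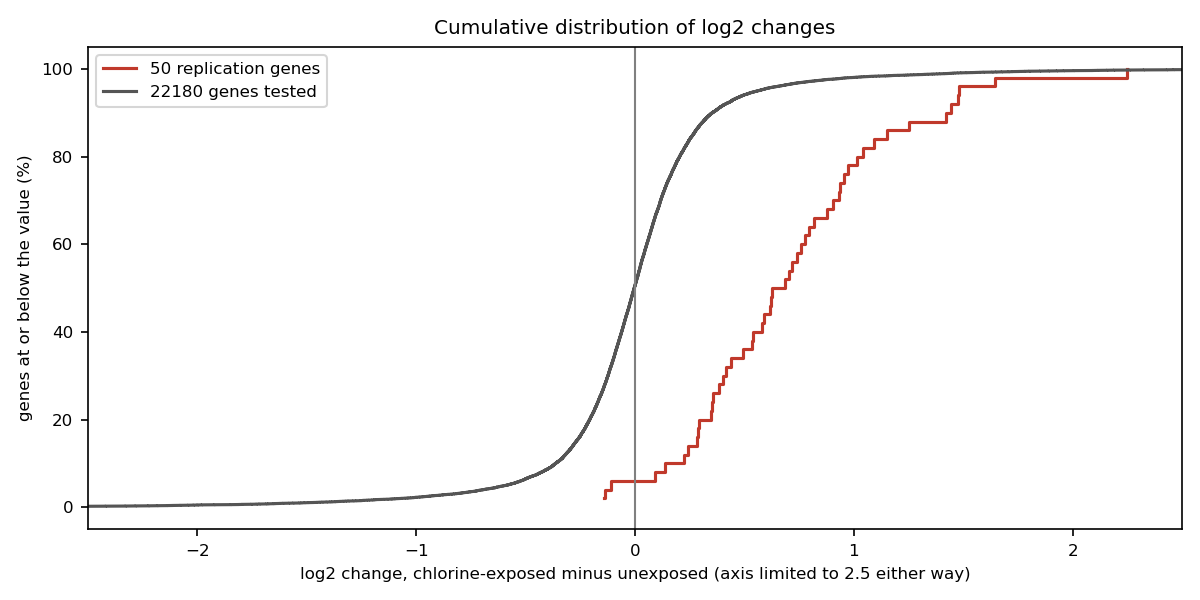
Cumulative percentage of genes (vertical axis) by log2 change, chlorine-exposed minus unexposed (horizontal axis), for the 50 replication genes and for all 22180 genes tested. The curve of the replication genes is shifted to the right, with medians of 0.655 and -0.003.

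By step of the pathway, of 15 licensing genes 10 rose (median log2 change 0.761), of 8 firing genes 6 rose (median 0.809), and of 18 measured synthesis genes 8 rose (median 0.408). Nucleotide supply gave 4 of 5 (median 0.974), and chromatin assembly and maintenance methylation gave 4 of 4 (median 0.997). As averages over probe sets, no synthesis gene reached 2-fold, while 5 licensing, 2 firing, 2 nucleotide supply and 2 chromatin genes did. The brighter of the 2 Pole probe sets, a synthesis gene, rose by 1.02 on the log2 scale when taken alone. Differences between steps were not tested. Averaged over a step, the exposed mice stood above all unexposed mice in each of the 5 steps. The synthesis mean came closest to overlap, with 6.50 to 6.99 in exposed mice and 6.21 to 6.36 in unexposed mice, and the nucleotide supply mean was farthest apart, with 6.79 to 7.51 in exposed mice and 5.88 to 6.09 in unexposed mice.

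**Figure D3:**
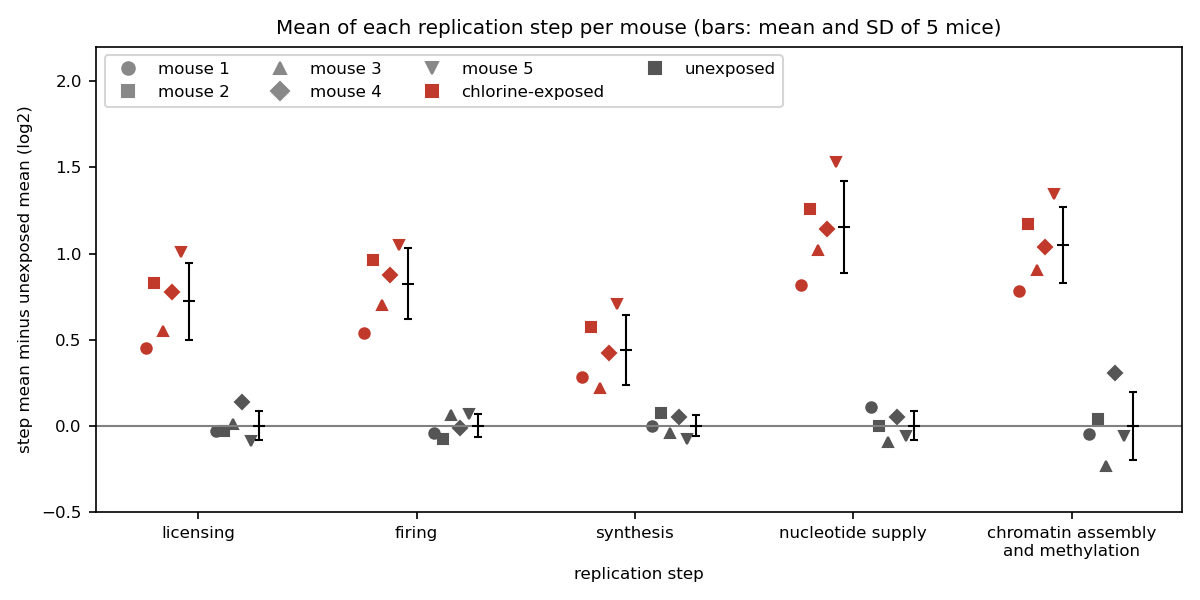
Mean log2 value over the measured genes of each replication step in each mouse, drawn relative to the mean of the unexposed mice (vertical axis), with exposed mice left of unexposed mice and bars for the mean and SD of 5 mice. Exposed mouse 5 is the highest point in every step and exposed mouse 1 or 3 the lowest of its group, and no exposed point reaches an unexposed one.

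Promoter sequence was examined because E2F proteins are known to act on many of these genes. RefSeq promoters (build GRCm38.p6, 250 bases before to 50 bases after an annotated start) were at hand for 42 of the 50 measured members. E2F-type sites were searched on both strands as the word TTCCCGC, the variant word TTGGCGC, the variant word TTCGCGC and the variant word TTGCCGC. The cell cycle genes homology region was searched as the word TTTGAA or the variant word TTCGAA, and the CCAAT box by that word. An E2F-type word stood in a promoter of 27 of the 42 members (64.3%), beside 13.7% of the 16990 tested genes with a promoter and 10.9% of all 27025 genes with one. A CCAAT word stood in 61.9% of the members and 41.6% of tested genes, and a homology region word in 23.8% and 19.4%. Member promoters also held more CpG dinucleotides, a median of 25 beside 15, and the share of words due to that composition was not tested. Within the list, the E2F-type words were present in 16 of the 27 members that rose and in 11 of the 15 that did not pass. Printed here, 5′ to 3′, are the promoters of the members with the largest rise in licensing (Mcm5 and, next to it, Mcm6), firing (Dbf4) and nucleotide supply (Rrm2), with Orc3, whose change lay below 0, as a contrast. Capitals mark the E2F-type words, which may overlap each other.
Mcm5, chr8:75109259-75109558, plus strand: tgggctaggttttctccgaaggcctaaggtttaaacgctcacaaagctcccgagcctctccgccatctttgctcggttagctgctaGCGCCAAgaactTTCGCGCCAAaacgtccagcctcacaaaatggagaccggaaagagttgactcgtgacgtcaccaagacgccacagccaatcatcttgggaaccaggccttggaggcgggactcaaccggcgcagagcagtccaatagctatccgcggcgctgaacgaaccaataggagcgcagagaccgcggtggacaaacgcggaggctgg
Mcm6, chr1:128359656-128359955, minus strand: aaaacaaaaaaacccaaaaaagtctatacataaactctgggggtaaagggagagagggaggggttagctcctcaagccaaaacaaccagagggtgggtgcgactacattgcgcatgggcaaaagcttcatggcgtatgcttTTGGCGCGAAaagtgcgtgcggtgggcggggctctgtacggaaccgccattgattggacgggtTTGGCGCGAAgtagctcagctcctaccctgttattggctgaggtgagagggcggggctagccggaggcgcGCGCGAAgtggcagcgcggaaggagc
Dbf4, chr5:8422667-8422966, minus strand: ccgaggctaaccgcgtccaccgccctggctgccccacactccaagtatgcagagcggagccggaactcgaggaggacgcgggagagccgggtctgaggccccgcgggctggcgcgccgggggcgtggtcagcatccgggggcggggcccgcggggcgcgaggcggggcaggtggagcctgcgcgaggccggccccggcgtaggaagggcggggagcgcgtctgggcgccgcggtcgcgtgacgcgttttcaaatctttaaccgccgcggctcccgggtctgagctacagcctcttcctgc
Rrm2, chr12:24708004-24708303, plus strand: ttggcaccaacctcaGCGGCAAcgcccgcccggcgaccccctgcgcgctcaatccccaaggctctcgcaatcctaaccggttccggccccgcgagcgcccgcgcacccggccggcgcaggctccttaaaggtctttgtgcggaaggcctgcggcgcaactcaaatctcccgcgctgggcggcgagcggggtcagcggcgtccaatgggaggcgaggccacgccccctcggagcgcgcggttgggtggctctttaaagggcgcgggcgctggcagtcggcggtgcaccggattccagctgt
Orc3, chr4:34614893-34615192, minus strand: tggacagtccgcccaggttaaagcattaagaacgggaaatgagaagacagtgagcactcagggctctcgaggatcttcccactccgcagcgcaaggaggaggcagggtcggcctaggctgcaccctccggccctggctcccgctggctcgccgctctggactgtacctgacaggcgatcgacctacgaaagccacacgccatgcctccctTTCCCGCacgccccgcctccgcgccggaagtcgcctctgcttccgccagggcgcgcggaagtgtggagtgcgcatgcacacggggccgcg
Mcm6 held 5 such words, the most of any member window, and those upstream of its start fell in overlapping pairs. Mcm5 held 3, the Dbf4 window 0 and those of Rrm2 and Orc3 1 each. Pole2 and Uhrf1, with the largest rise in synthesis and in the chromatin step, held 1 per window and are not printed. A match is only a match of letters, and a window without one says nothing about the factor.

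Among the 6 genes of ORC, which marks origins through the cell cycle, Orc1 and Orc6 rose and Orc2, Orc3, Orc4 and Orc5 did not pass. Orc1 encodes the subunit whose abundance is regulated most in the mammalian cell cycle. Its log2 values were 5.19, 5.69, 5.99, 5.48 and 5.85 in exposed mice 1 to 5, against 4.99, 4.98, 4.79, 4.72 and 4.91 in unexposed mice 1 to 5 (log2 change of 0.76 with SE 0.15, adjusted p = 0.00645). The groups did not overlap, and exposed mouse 1 was the lowest of its group. Orc6 read 6.63, 7.05, 7.19, 7.11 and 7.07 in exposed mice and 6.56, 6.49, 6.37, 6.85 and 6.10 in unexposed mice (log2 change of 0.54 with SE 0.15, adjusted p = 0.0403). Exposed mouse 1 lay below unexposed mouse 4, and Orc6 passed in only 2 of the 10 fits with a mouse left out, when that mouse was exposed mouse 1 or unexposed mouse 4 (range of adjusted p 0.0135 to 0.0899 over the 10). For the core subunit Orc2 the values were 6.67, 6.68, 6.66, 6.75 and 6.69 in exposed mice and 6.35, 6.45, 6.62, 6.26 and 6.32 in unexposed mice (log2 change of 0.29 with SE 0.089, adjusted p = 0.0579). The groups did not overlap although the gene did not pass, and it passed without unexposed mouse 3 (adjusted p 0.0334). Orc3, a core subunit that binds Orc2, had 7.62, 7.82, 7.57, 7.58 and 7.73 in exposed mice, against 7.74, 7.80, 7.80, 7.87 and 7.79 in unexposed mice (log2 change of -0.14 with SE 0.083, adjusted p = 0.358). Its sister subunit Orc4 had 7.76, 7.91, 7.91, 8.04 and 8.03 in exposed mice, against 8.18, 8.06, 8.09, 8.10 and 7.92 in unexposed mice (log2 change of -0.14 with SE 0.090, adjusted p = 0.387). Both of these changes lay below 0 with overlapping groups, and their 95% intervals ran from -0.32 to 0.045 and from -0.34 to 0.056. Orc5 had 6.55, 6.60, 6.39, 6.24 and 6.66 in exposed mice, against 6.48, 6.69, 6.43, 6.39 and 6.004 in unexposed mice (log2 change of 0.090 with SE 0.13, adjusted p = 0.749), with an interval from -0.20 to 0.38.

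The loading factors rose, while geminin varied most among exposed mice. Cdc6, the ATPase that completes the loading complex on ORC, was measured at 5.35, 6.19, 5.60, 5.89 and 5.77 in exposed mice and 4.48, 4.47, 4.63, 4.73 and 4.71 in unexposed mice, a 2.23-fold rise (log2 change of 1.15 with SE 0.14, adjusted p = 0.00053). All exposed mice stood above all unexposed mice, and exposed mouse 2 was the highest. Cdt1, the partner that brings Mcm2-7 to the origin, was measured at 5.75, 6.45, 6.30, 6.15 and 6.84 in exposed mice and 5.60, 5.47, 5.57, 5.91 and 5.52 in unexposed mice (log2 change of 0.68 with SE 0.18, adjusted p = 0.0307). Exposed mouse 1 lay below unexposed mouse 4, and the call was lost in 6 of the 10 fits with a mouse left out, when that mouse was number 2 or 5 of the exposed or number 1, 2, 3 or 5 of the unexposed group (range of adjusted p 0.00498 to 0.0732). Gmnn, the inhibitor of Cdt1, was measured at 6.79, 6.94, 5.86, 7.16 and 7.59 in exposed mice and 6.65, 5.94, 6.19, 6.17 and 6.28 in unexposed mice (log2 change of 0.62 with SE 0.27, adjusted p = 0.178). It did not pass, and exposed mouse 3 lay below all unexposed mice while the other exposed mice lay above them. Without exposed mouse 3 its log2 change was 0.873 (adjusted p = 0.0115), with adjusted p 0.0115 to 0.336 over the 10 fits.

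All 6 genes of the Mcm2-7 hexamer, the replicative helicase that unwinds DNA ahead of the polymerases, rose, and in each of them the groups did not overlap. Their log2 changes ran between 0.818 for Mcm7 and 1.48 for Mcm5, and 4 of the 6 rose at least 2-fold. Mcm5, shown above with its promoter, stood at 6.09, 6.75, 6.71, 7.15 and 7.18 in exposed mice, against 5.10, 5.23, 5.44, 5.65 and 5.05 in unexposed mice, a 2.80-fold rise (log2 change of 1.48 with SE 0.20, adjusted p = 0.000871). Mcm6 stood at 7.12, 7.85, 7.10, 7.58 and 8.13 in exposed mice, against 5.77, 6.05, 6.14, 6.57 and 5.89 in unexposed mice, a 2.78-fold rise (log2 change of 1.48 with SE 0.21, adjusted p = 0.00129). In both genes exposed mouse 5 was the highest. Group means for Mcm3 were 6.97 ± 0.27 in exposed and 5.71 ± 0.23 in unexposed mice (SD, n = 5 each), a 2.38-fold rise. Mcm2, the subunit that also binds histones, averaged 6.52 ± 0.19 in exposed and 5.51 ± 0.18 in unexposed mice (SD, n = 5 each), a 2.02-fold rise. For Mcm4 the means were 7.57 ± 0.25 in exposed and 6.63 ± 0.24 in unexposed mice (SD, n = 5 each), and for Mcm7 6.96 ± 0.41 in exposed and 6.14 ± 0.17 in unexposed mice (SD, n = 5 each). The last pair rose 1.92-fold and 1.76-fold. None of the 6 lost its call with a mouse left out.

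**Figure D4:**
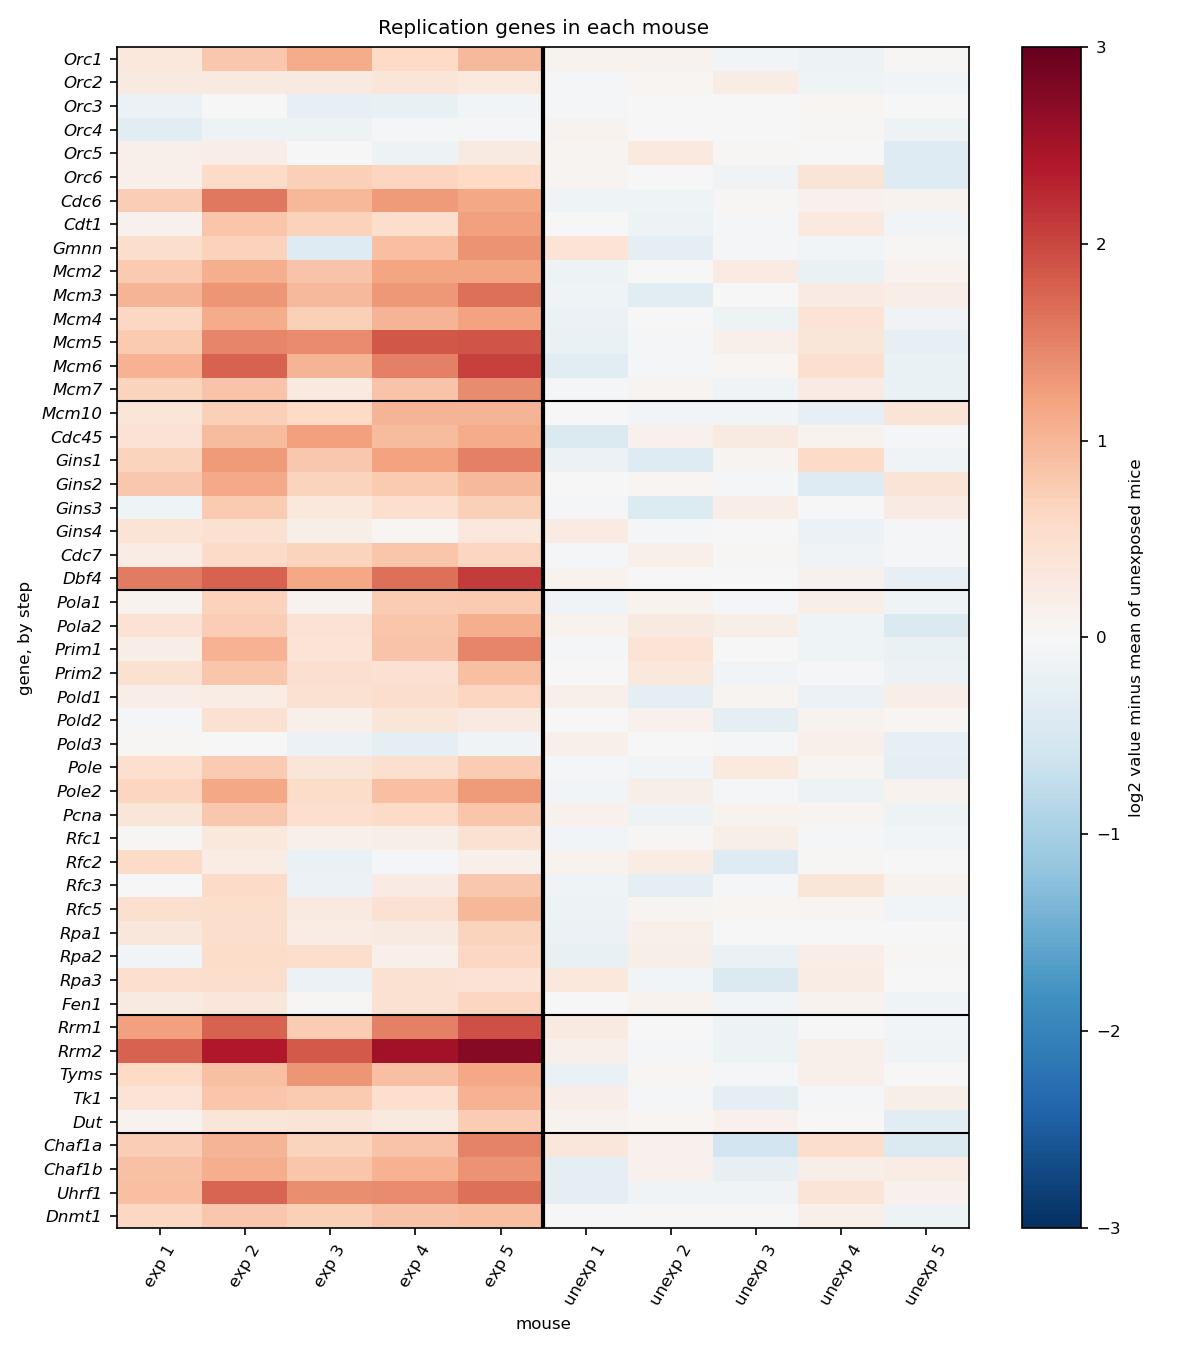
Log2 value of each measured replication gene (rows, by step) in each mouse (columns, exposed left of unexposed), drawn as the difference from the mean of the unexposed mice. The Mcm, Rrm1, Rrm2, Dbf4 and Uhrf1 rows are raised in all exposed mice, and Orc3, Orc4, Orc5, Pold3 and Rfc2 show little difference.

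Of the 8 genes of origin firing, 6 rose and none fell. Dbf4, the regulatory subunit that activates the Cdc7 kinase, showed the second-largest rise of the list, with 6.87, 7.08, 6.45, 6.96 and 7.39 in exposed mice, against 5.42, 5.29, 5.31, 5.44 and 5.07 in unexposed mice, a 3.13-fold rise (log2 change of 1.65 with SE 0.16, adjusted p = 0.000106). The lowest exposed value was that of mouse 3, well above the highest unexposed value. Cdc7, the kinase itself, averaged 6.24 ± 0.23 in exposed and 5.65 ± 0.11 in unexposed mice (SD, n = 5 each) and rose 1.51-fold (log2 change of 0.59 with SE 0.12, adjusted p = 0.00843). Cdc45, which with GINS and Mcm2-7 forms the active helicase, averaged 6.10 ± 0.31 in exposed and 5.17 ± 0.27 in unexposed mice (SD, n = 5 each) (log2 change of 0.93 with SE 0.17, adjusted p = 0.00476). Mcm10, needed to start unwinding, averaged 5.33 ± 0.28 in exposed and 4.59 ± 0.24 in unexposed mice (SD, n = 5 each) (log2 change of 0.74 with SE 0.16, adjusted p = 0.0107), and exposed mouse 1 lay below the highest unexposed mouse.

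The GINS complex has 4 subunits, of which Gins1 and Gins2 rose and Gins3 and Gins4 did not pass. Gins1 values were 5.32, 5.94, 5.48, 5.86 and 6.19 in exposed mice and 4.50, 4.27, 4.76, 5.23 and 4.57 in unexposed mice (log2 change of 1.09 with SE 0.20, adjusted p = 0.0052), with no overlap. Gins2 averaged 7.15 ± 0.18 in exposed and 6.27 ± 0.27 in unexposed mice (SD, n = 5 each) (log2 change of 0.88 with SE 0.14, adjusted p = 0.00235), also with no overlap. Gins3 values were 4.82, 5.74, 5.27, 5.46 and 5.67 in exposed mice and 4.91, 4.54, 5.16, 4.97 and 5.20 in unexposed mice (log2 change of 0.44 with SE 0.18, adjusted p = 0.165). Exposed mouse 1 lay among the unexposed mice, and without it Gins3 passed (log2 change 0.58, adjusted p = 0.0326). Gins4 values were 8.20, 8.27, 7.97, 7.87 and 8.13 in exposed mice and 8.06, 7.75, 7.80, 7.64 and 7.77 in unexposed mice (log2 change of 0.28 with SE 0.11, adjusted p = 0.133). Both changes were above 0, with intervals from 0.036 to 0.84 and from 0.043 to 0.53. A difference between the GINS subunits was not tested.

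The synthesis genes were mixed, with 8 rising, 10 that did not pass and none falling. In polymerase alpha-primase, which lays the RNA-DNA primers, 3 of 4 subunits rose. Prim1, the catalytic primase subunit, read 5.92, 6.76, 6.12, 6.56 and 7.18 in exposed mice and 5.64, 6.13, 5.69, 5.58 and 5.51 in unexposed mice (log2 change of 0.80 with SE 0.22, adjusted p = 0.0394). Unexposed mouse 2 stood above exposed mice 1 and 3, and Prim1 passed in 3 of the 10 fits, when number 1 or 3 of the exposed or number 2 of the unexposed group was left out (range of adjusted p 0.0111 to 0.0889). Pola2 and Prim2 averaged 6.36 ± 0.28 in exposed and 5.66 ± 0.28 in unexposed mice (SD, n = 5 each) and 6.07 ± 0.23 in exposed and 5.44 ± 0.19 in unexposed mice (SD, n = 5 each), and neither group pair overlapped. The catalytic subunit Pola1 read 6.38, 6.95, 6.37, 7.02 and 7.06 in exposed mice and 6.15, 6.36, 6.21, 6.44 and 6.15 in unexposed mice (log2 change of 0.49 with SE 0.16, adjusted p = 0.0711). It passed without exposed mouse 1 or 3, over a range of 0.0276 to 0.158.

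Polymerase epsilon, which copies the leading strand, had 2 genes among the 50, both of which rose, and polymerase delta, which copies the lagging strand, had 3, of which 0 rose. With the smaller subunits outside the 50 genes counted too, 3 of 4 epsilon genes and 1 of 4 delta genes rose. Pole2, the second subunit of epsilon, read 6.10, 6.63, 6.01, 6.37 and 6.74 in exposed mice and 5.39, 5.64, 5.40, 5.32 and 5.58 in unexposed mice, a 1.87-fold rise (log2 change of 0.91 with SE 0.15, adjusted p = 0.00246). The groups were clear of each other. Pole, the catalytic subunit, averaged 5.25 ± 0.18 in exposed and 4.67 ± 0.21 in unexposed mice (SD, n = 5 each) (log2 change of 0.58 with SE 0.13, adjusted p = 0.013) over 2 probe sets that are described below. Pole lost its call with the mouse number taken as a block. Pold1, the catalytic subunit of delta, read 6.15, 6.16, 6.39, 6.47 and 6.59 in exposed mice and 6.10, 5.66, 6.03, 5.77 and 6.13 in unexposed mice (log2 change of 0.41 with SE 0.13, adjusted p = 0.0621). Its groups did not overlap, though the gap between exposed mouse 1 and unexposed mouse 5 was small, and it passed without exposed mouse 1 (adjusted p 0.0444). Pold1 also passed with array medians centred and with dim genes left out. Pold2 read 6.90, 7.39, 7.08, 7.29 and 7.21 in exposed mice and 6.92, 7.07, 6.63, 7.05 and 7.002 in unexposed mice (log2 change of 0.24 with SE 0.12, adjusted p = 0.253). Pold3, an accessory subunit of delta, read 7.18, 7.13, 6.97, 6.84 and 7.03 in exposed mice and 7.30, 7.12, 7.10, 7.29 and 6.89 in unexposed mice (log2 change of -0.11 with SE 0.11, adjusted p = 0.604). It was the only synthesis gene whose change lay below 0, with an interval from -0.34 to 0.13. Of the smaller subunits, Pold4 rose by 0.429 (adjusted p = 0.0178) and Pole3 by 0.445 (adjusted p = 0.0185), each in all 10 fits with a mouse left out, while Pole4 changed by -0.15 (adjusted p = 0.45). The difference between the epsilon and delta subunits was not tested.

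Of the clamp and the 4 measured clamp loader subunits, Pcna and Rfc5 rose. Pcna, the sliding clamp that tethers the polymerases, had 9.64, 10.09, 9.77, 9.85 and 10.11 in exposed mice, against 9.39, 9.13, 9.38, 9.36 and 9.11 in unexposed mice, a 1.53-fold rise (log2 change of 0.62 with SE 0.12, adjusted p = 0.0061). Every exposed mouse was above every unexposed mouse. Rfc5 averaged 7.04 ± 0.27 in exposed and 6.50 ± 0.11 in unexposed mice (SD, n = 5 each) (log2 change of 0.54 with SE 0.13, adjusted p = 0.0206) and lost its call only without unexposed mouse 1 (adjusted p 0.0552). The large subunit Rfc1 had 7.05, 7.31, 7.17, 7.18 and 7.46 in exposed mice, against 6.93, 7.06, 7.17, 6.95 and 6.93 in unexposed mice (log2 change of 0.23 with SE 0.10, adjusted p = 0.191). Rfc2, a small subunit, had 7.19, 6.83, 6.41, 6.56 and 6.76 in exposed mice, against 6.73, 6.83, 6.24, 6.65 and 6.63 in unexposed mice (log2 change of 0.14 with SE 0.16, adjusted p = 0.668). Rfc3, another small subunit, had 5.70, 6.25, 5.51, 5.92 and 6.48 in exposed mice, against 5.55, 5.41, 5.62, 6.04 and 5.79 in unexposed mice (log2 change of 0.29 with SE 0.19, adjusted p = 0.39). In these last 3 genes the groups overlapped, and their intervals ran from 0.006 to 0.45, from -0.21 to 0.48 and from -0.12 to 0.70.

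RPA coats single-stranded DNA, and of its 3 subunits only the large one, Rpa1, passed. Rpa1 gave 7.10, 7.29, 6.97, 7.03 and 7.41 in exposed mice and 6.59, 6.92, 6.78, 6.75 and 6.75 in unexposed mice (log2 change of 0.40 with SE 0.11, adjusted p = 0.0353). Its groups did not overlap, but the call was lost when number 2 or 5 of the exposed or number 1, 3, 4 or 5 of the unexposed group was left out (range of adjusted p 0.0254 to 0.088). Rpa2 gave 6.29, 6.92, 6.92, 6.52 and 7.001 in exposed mice and 6.16, 6.56, 6.17, 6.58 and 6.42 in unexposed mice (log2 change of 0.35 with SE 0.16, adjusted p = 0.191). Rpa3 gave 7.94, 7.97, 7.26, 7.88 and 7.86 in exposed mice and 7.74, 7.36, 6.999, 7.65 and 7.42 in unexposed mice (log2 change of 0.35 with SE 0.17, adjusted p = 0.242). In Rpa3 exposed mouse 3 fell among the unexposed mice while the other exposed mice stood above them all. Fen1, the nuclease that trims flaps between Okazaki fragments, gave 4.56, 4.62, 4.32, 4.74 and 4.93 in exposed mice and 4.29, 4.38, 4.20, 4.38 and 4.14 in unexposed mice (log2 change of 0.35 with SE 0.12, adjusted p = 0.08). It passed without exposed mouse 3 (adjusted p = 0.0255), and its probe sets differed as described below.

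Nucleotide supply held the largest rise of the list. Rrm2, the small subunit of ribonucleotide reductase, which makes deoxynucleotides, was at 7.05, 7.69, 7.12, 7.80 and 8.01 in exposed mice and at 5.44, 5.24, 5.13, 5.44 and 5.17 in unexposed mice, a 4.75-fold rise (log2 change of 2.25 with SE 0.18, adjusted p = 4.96e-05). The lowest exposed value, 7.05 in mouse 1, was far above the highest unexposed value of 5.44. The large subunit Rrm1 was at 7.88, 8.41, 7.42, 8.15 and 8.59 in exposed mice and at 6.92, 6.65, 6.49, 6.63 and 6.56 in unexposed mice, a 2.72-fold rise (log2 change of 1.44 with SE 0.20, adjusted p = 0.000834). Exposed mouse 3 was the lowest of its group for Rrm1 and mouse 5 the highest. Tyms, the thymidylate synthase, averaged 7.11 ± 0.28 in exposed and 6.13 ± 0.13 in unexposed mice (SD, n = 5 each) and rose 1.96-fold (log2 change of 0.97 with SE 0.14, adjusted p = 0.000971). Tk1, the cytosolic thymidine kinase of the salvage route, averaged 6.995 ± 0.26 in exposed and 6.28 ± 0.20 in unexposed mice (SD, n = 5 each) and rose 1.64-fold (log2 change of 0.72 with SE 0.14, adjusted p = 0.00746). Dut, the dUTPase that keeps uracil out of DNA, was at 5.64, 5.92, 5.94, 5.84 and 6.30 in exposed mice and at 5.65, 5.60, 5.68, 5.55 and 5.24 in unexposed mice (log2 change of 0.38 with SE 0.13, adjusted p = 0.0949). It did not pass as a mean of 2 probe sets, and passed without exposed mouse 1 (adjusted p 0.0454).

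All 4 genes that restore chromatin and methylation behind the fork rose, each with no overlap between the groups. Uhrf1, which reads hemimethylated DNA and brings in the maintenance methyltransferase, was found at 6.85, 7.69, 7.35, 7.36 and 7.61 in exposed mice and 5.65, 5.85, 5.84, 6.33 and 6.07 in unexposed mice, a 2.68-fold rise (log2 change of 1.42 with SE 0.17, adjusted p = 0.000417). Dnmt1, that methyltransferase, was found at 8.04, 8.24, 8.15, 8.27 and 8.32 in exposed mice and 7.44, 7.43, 7.42, 7.58 and 7.28 in unexposed mice (log2 change of 0.78 with SE 0.091, adjusted p = 0.000349). Its SE of 0.091 was the smallest among the 32 genes that rose. Chaf1b, a subunit of the histone deposition complex CAF-1, was found at 5.87, 6.07, 5.81, 6.01 and 6.33 in exposed mice and 4.71, 5.10, 4.73, 5.14 and 5.20 in unexposed mice (log2 change of 1.04 with SE 0.14, adjusted p = 0.000681). The partner subunit Chaf1a averaged 5.83 ± 0.32 in exposed and 4.88 ± 0.48 in unexposed mice (SD, n = 5 each) (log2 change of 0.95 with SE 0.23, adjusted p = 0.0206), and lost its call without unexposed mouse 5 (adjusted p 0.0511).

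The 6 members with 2 probe sets were also tested with each of the 23521 single-symbol probe sets by itself. Both Rrm2 probe sets rose, by 2.65 and 1.85 on the log2 scale (adjusted p = 0.000108 and 3.52e-05). For Pole the brighter probe set rose by 1.02 (adjusted p = 0.00339), and the dimmer one, at 4.53 in exposed and 4.39 in unexposed mice, changed by 0.143 (adjusted p = 0.561). Fen1 showed the same split, with 0.476 for the brighter probe set (adjusted p = 0.0272) and 0.233 for the dimmer one (adjusted p = 0.465), which averaged 3.53 in exposed and 3.29 in unexposed mice. Dut had one probe set at 8.26 in exposed and 7.54 in unexposed mice (log2 change 0.721, adjusted p = 0.0228). Its other probe set lay at 3.60 in exposed and 3.55 in unexposed mice (log2 change 0.044, adjusted p = 0.932). The means of Fen1 and Dut over both probe sets therefore fell short of the threshold that their brighter probe sets passed. For Rpa1 the probe set that was brighter over all mice changed by 0.299 and did not pass (adjusted p = 0.0923), and the other rose by 0.504 (adjusted p = 0.0189). The Rpa3 probe sets changed by 0.334 and 0.363 (adjusted p = 0.267 and 0.27).

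**Figure D5:**
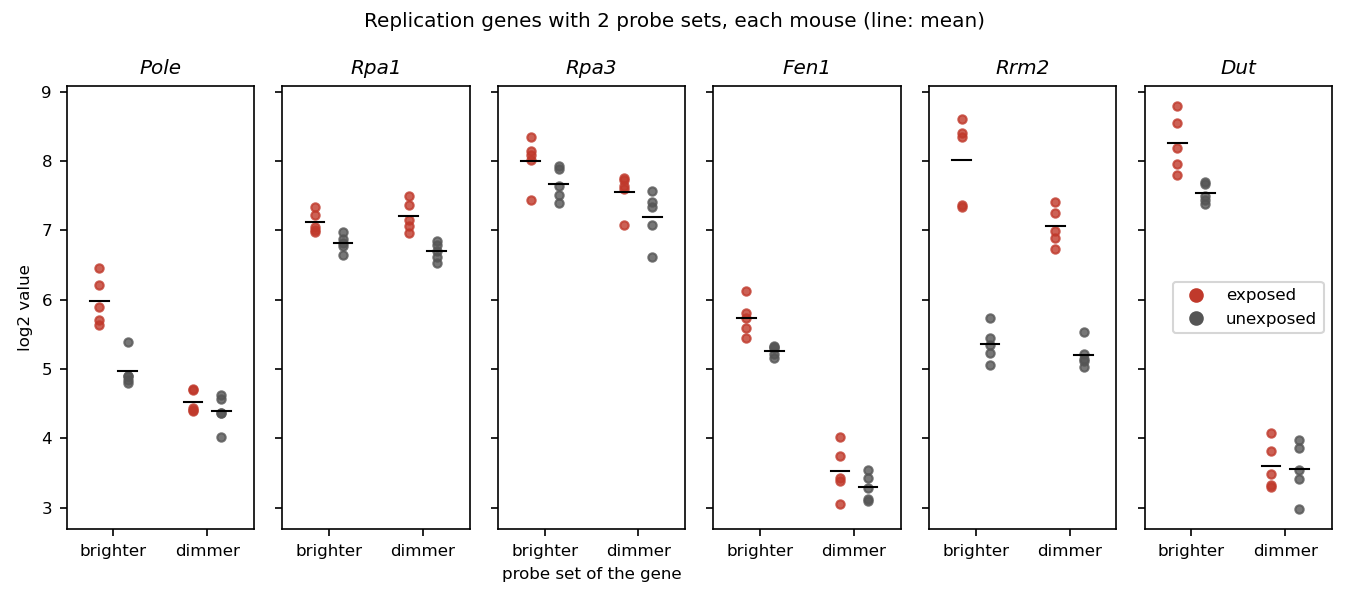
Log2 value of each probe set (vertical axis) in each mouse for the 6 replication genes with 2 probe sets, exposed left of unexposed, with a line at each group mean. The dimmer probe sets of Dut, Fen1 and Pole lie below 5 in all mice and the groups overlap there, while both Rrm2 probe sets separate the groups.

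The exposed mice were not alike. Exposed mouse 5 had the highest value of its group in 32 of the 50 members, and exposed mouse 1 and mouse 3 the lowest in 27 and 20. Ranks were uneven in the unexposed group too, where mouse 4 was the highest in 20 members and mouse 5 the lowest in 16. The median difference of the members from the unexposed mean was 0.97 in exposed mouse 5, 0.799 in mouse 2, 0.696 in mouse 4, 0.516 in mouse 3 and 0.428 in mouse 1. Between 35 and 46 of the 50 members stood above the highest unexposed value in each exposed mouse. These counts per mouse were not taken over all genes, so whether they are particular to the members was not tested. The median SD of the members was 0.278 in exposed mice and 0.186 in unexposed mice, beside 0.223 and 0.193 over all genes. Without exposed mice 1 and 3, which were left out after the data were seen, 36 members rose and 0 fell. In that fit 1413 of all genes rose and 1335 fell. These mice were most often the lowest in these same members, so leaving them out enlarges the member changes and gives no support.

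Further genes of replication and its control were listed by function but with earlier results of these data known. They include 13 genes of E2F, DP and pocket proteins, which regulate transcription. Of the 76 measured, called further replication genes below, 34 rose and 1 fell. Over all genes tested, 5.85% rose and 4.97% fell. Of 14 further origin and fork factors 6 rose, led by Ticrr, the firing factor treslin (log2 change 1.17, adjusted p = 0.00146), the fork protein Wdhd1 (1.03, adjusted p = 0.0119) and the checkpoint mediator Clspn (0.65, adjusted p = 0.0357). Of 16 further polymerase, Okazaki fragment and topoisomerase genes 7 rose, led by Top2a, the topoisomerase of dividing cells (2.44, adjusted p = 2.13e-05), Dscc1 of an alternative clamp loader (1.29, adjusted p = 0.00322) and the ligase Lig1, which seals Okazaki fragments (1.17, adjusted p = 0.000782). The related topoisomerases Top1 and Top2b changed by -0.257 and -0.279 and did not pass, although in both every exposed mouse lay below every unexposed mouse. Ticrr and Dscc1 were dim, averaging 3.86 and 3.95 in unexposed mice, below the array medians of 5.10 to 5.18. Of 10 genes of licensing control by cyclin kinases and ubiquitin ligases 6 rose, led by the S phase cyclin Ccna2 (2.75), Dtl, the ligase adaptor that targets Cdt1 (1.03, adjusted p = 0.00376), and Fbxo5 (1.03, adjusted p = 0.00618). Ddb1, Cul4a and Cul4b, the other parts of the ligase that Dtl joins, changed by 0.148, 0.189 and 0.175 and did not pass. In Cul4a every exposed mouse lay above every unexposed mouse, while the groups overlapped in Ddb1 and Cul4b.

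Of 13 further nucleotide genes 5 rose, led by Samhd1 (1.16, adjusted p = 0.000243), the cytidine triphosphate synthase Ctps (0.953, adjusted p = 0.0021) and the nucleoside diphosphate kinase Nme1 (0.908, adjusted p = 0.000333). Samhd1 degrades deoxynucleotides, so that the gene in front of this list encodes an enzyme of breakdown. Rrm2b, the reductase subunit of resting and damaged cells, changed by -0.171 (adjusted p = 0.39), where Rrm2 rose by 2.25. Of 10 histone chaperone and chromatin genes 5 rose, led by the helicase-like Hells (1.41, adjusted p = 0.00154), the chaperone Asf1b (1.05, adjusted p = 0.000822) and Mms22l (1.01, adjusted p = 0.00935). Asf1a, the relative of Asf1b, changed by 0.094 and did not pass. Of 13 genes of E2F, their DP partners and the pocket proteins 5 rose and 1 fell. The rises were led by the repressive E2F genes E2f8 (2.01, adjusted p = 0.000427) and E2f7 (1.21, adjusted p = 0.00165) and the pocket protein gene Rbl1 (0.826, adjusted p = 0.0124), and the pocket protein gene Rbl2 fell (-0.384, adjusted p = 0.0111). The other 2 rises were those of the activator E2f3 (0.545, adjusted p = 0.0216) and of Tfdp1, a DP partner of E2F proteins (0.73, adjusted p = 0.00043). The activators E2f1 and E2f2 changed by 0.318 and 0.03 and did not pass. E2f3 lost its call when number 4 of the exposed or number 2 or 3 of the unexposed group was left out (range of adjusted p 0.00456 to 0.0545). Clspn lost its call in 7 of the 10 fits with a mouse left out, and kept it when number 1 or 3 of the exposed or number 4 of the unexposed group was the one (range of adjusted p 0.0044 to 0.0866). Asf1a, Ddb1, Cul4a, Cul4b, Top1, Top2b, Rrm2b, E2f1, E2f2, E2f3, Tfdp1, Pold4, Pole3, Pole4 and Krt17 were named after their values were seen.

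Markers of the cell types that the dissected tissue could hold also differed between the groups. The 9 fibroblast and mesenchyme markers had a mean of 9.90 to 10.6 in exposed mice and 9.64 to 9.93 in unexposed mice, well above the array medians of 5.10 to 5.18, and 4 of them rose, led by Col3a1 (1.04, adjusted p = 0.00295). With a mouse left out, 2 to 5 fibroblast markers rose, with 2 when it was number 4 of the exposed or number 1 or 5 of the unexposed group. The 6 general epithelial markers had means of 8.27 to 9.26 in exposed mice and 8.68 to 9.14 in unexposed mice with 0 of 6 passing, so that epithelial transcript was present in both groups. Basal epithelium markers rose in 2 of 6, Krt14 by 4.31 (adjusted p = 6.77e-06) and Krt17 by 1.86, with means of 7.78 to 8.95 in exposed mice and 7.59 to 7.86 in unexposed mice. In 3 of the 6 basal markers the change lay below 0, down to -0.517, and the median over that list was 0.075. Ciliated markers fell in 2 of 6, with means of 4.50 to 7.89 in exposed mice and 7.81 to 8.31 in unexposed mice, led by Sntn (-3.64, adjusted p = 0.0161). Without exposed mouse 1, 5 of the 6 ciliated markers fell. Secretory markers fell in 1 of 5 (Bpifb1), with means of 5.37 to 11.2 in exposed mice and 11.5 to 11.8 in unexposed mice. In 4 of the 5 secretory markers every exposed mouse lay below every unexposed mouse, and 3 of 5 fell without exposed mouse 3. Macrophage markers rose in 3 of 5, led by Cd68 (1.79, adjusted p = 0.00418), with means of 8.48 to 9.41 in exposed mice and 7.62 to 8.29 in unexposed mice, and neutrophil markers rose in 2 of 5, led by S100a8 (2.43, adjusted p = 0.00391). In 1 of the 5 macrophage markers the change lay below 0, at -0.34, and did not pass. With a mouse left out, 2 to 3 macrophage and 1 to 3 neutrophil markers rose, with 1 neutrophil marker when it was number 2 or 4 of the exposed or number 1 or 5 of the unexposed group. Cartilage markers fell in 1 of 6 (Matn1) and in 3 of 6 without exposed mouse 3, and lymphocyte markers fell in 1 of 6 (Cd3g) and in 2 of 6 without exposed mouse 4. Endothelial markers rose in 1 of 5 (Tek), in 3 without exposed mouse 1, in 2 without unexposed mouse 3 and in 0 in the other 8 fits with a mouse left out. Smooth muscle markers passed in 0 of 5. Exposed mouse 3 had the lowest general epithelial, basal, ciliated and secretory means and the highest fibroblast, macrophage and neutrophil means, and exposed mouse 1 the highest epithelial means of those lists. The part of any of these cell types in the rise of the replication genes was not tested, and the arrays do not assign a transcript to a cell type.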

How the data were processed

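The deposited table holds log2 values of probe sets made by RMA with Partek 6.6, per the submitters' processing notes. Base 2 was inferred from the range of the table and from RMA, whose other settings those notes do not give here. Per the labels' protocols, tissue was cut by laser-capture microdissection from frozen sections stained with hematoxylin and eosin and was chosen by its place under the epithelium, and total RNA was labelled with the Affymetrix WT Plus kit. No scanner files were used, so no value has a detection limit.

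Of 41345 probe sets, 23521 had 1 gene symbol in the platform annotation, 1814 named more than 1 gene, and 16010 without an entry stay unnamed here. Probe sets of 1 symbol were averaged, giving 22180 genes. Groups were compared in limma 3.58.1 (R 4.3.3; lmFit, eBayes, two-sided, no covariate), with Benjamini-Hochberg adjustment over all 22180 genes and a threshold of 0.05; the procedure was tested on simulated data. Members and lists were chosen with earlier results of these data known. Named are the members, up to 3 called genes per direction in each further list, and the called markers with the largest rise or fall; genes named outside this rule are given as such. Alternatives concerned normalization, dim genes, probe sets, the variance model, array weights, the threshold, the mouse number as a block and each mouse left out. Mice of the same number in both groups did not deviate together (correlations of their deviations, across genes, of -0.049 to 0.125), so the numbers were not taken as pairs. Across genes, arrays correlated at 0.947 to 0.983 within exposed mice, 0.982 to 0.986 within unexposed mice and 0.928 to 0.972 between the groups. Python 3.11.15, pandas 2.3.3 and matplotlib 3.10.9 served for tables and plots.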

Additional observations from a re-analysis of the deposited data

Results flagged for a closer look

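In 4 of 100 member groups (50 genes in exposed and in unexposed mice), 1 mouse stood apart from the other 4 by Dixon's test, about as many as the 1 in 20 that chance gives. Orc6 was lowest in exposed mouse 1, at 6.63, with the next exposed mouse at 7.05. Rpa3 was lowest in exposed mouse 3, at 7.26, with the next at 7.86. Mcm4 was highest in unexposed mouse 4, at 7.05, with the next at 6.63. Prim1 was highest in unexposed mouse 2, at 6.13, with the next at 5.69.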

How the results depend on the processing

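The count of replication genes that rose was 32, and 25 to 36 under the alternatives with a threshold of 0.05, among them 28 of 41 tested with dim genes left out, 33 with the brightest probe set and 34 with array medians centred; at an adjusted p under 0.01 it was 21. With the brightest probe set Rpa1 lost its call, and Dut and Fen1 gained one. No member fell under any alternative. With an adjusted p under 0.01, 2 synthesis genes and 22 of the further replication genes rose and 0 of that further list fell, and of all genes 619 rose and 435 fell. Dim genes left out gave 2 risen chromatin and methylation genes, because Chaf1a and Chaf1b were not tested, and 4 fallen further replication genes. Of the other members that rose in the main fit, Cdc6, Gins1, Mcm10, Orc1 and Pole had no call in that setting. Quantile normalization and eBayes with trend and robust settings each gave 2 fallen further replication genes. With the mouse number as a replicate block, 25 members rose, 3 of them synthesis genes, and 0 further genes fell. With 1 mouse left out, 5 to 10 synthesis genes rose (5 without unexposed mouse 1), and 723 to 1407 of all genes fell (725 and 723 without unexposed mouse 1 or 4). The log2 change of Orc5, not called, ran from -0.009 (without unexposed mouse 5) to 0.162 with 1 mouse left out. Apart from the causes named, the cause was not tested. With 5 arrays a group and no detection limit, a member that did not pass is not shown to be unchanged, and values near the array median may understate a change.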
